A study of Mus musculus with 24 samples.

Results

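A set of 7 genes of neutrophil granules, neutrophil receptors and calcium-binding alarmins were followed in mouse liver: S100a8, S100a9, Mmp8, Prtn3, Elane, Cxcr2 and Csf3r. They were chosen by name, through the GENCODE M21 symbol of each Ensembl identifier, and all 7 were found among the 22392 genes of the table. Of these, 6 passed the filter on low values (a mean of at least 10 over all libraries), as did 14040 genes in all, and Elane did not. Liver RNA was sequenced from CD2F1 mice in 3 groups of 8, with 1 library per mouse. The CT group was sham-injected and had no tumour, the C26 group was transplanted with C26 cells and left untreated, and the C26-CHO group received C26 cells and a diet with 2% cholestyramine by weight from day 1 to day 10 after the injection. C26 is a colon carcinoma line whose growth in mice is used as a model of cancer cachexia, and cholestyramine is a non-absorbed resin that traps bile acids in the intestine. The labels give no sex, age, tumour weight, batch or count of liver leukocytes. All values are from whole liver, where fewer cells of a type and less RNA per cell cannot be told apart.

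Neutrophils carry their antimicrobial proteins in granules that are filled one kind after another while the cell matures in the bone marrow. The primary granules hold the serine proteases proteinase 3 (Prtn3) and neutrophil elastase (Elane), whose genes are transcribed mainly in promyelocytes and are shut down in later stages. The secondary granules hold the collagenase Mmp8, and the cytoplasm of neutrophils is rich in the complex of S100a8 and S100a9 (calprotectin), which acts as an alarmin on the receptor Tlr4 when it is released. Csf3r is the receptor of the growth factor G-CSF, and Cxcr2 is the receptor of the attracting chemokines such as Cxcl1 and Cxcl2. S100a8, S100a9 and Csf3r are also transcribed in monocytes.

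The stretches of DNA directly upstream of both pairs of neighbouring members are printed here, since the first pair varied together and the second differed widely in level. S100a8 (ENSMUSG00000056054, chr3:90668978-90670035, plus strand) and S100a9 (ENSMUSG00000056071, chr3:90692632-90695721, minus strand) are protein-coding genes 22597 bases apart on GRCm38. Prtn3 (ENSMUSG00000057729, chr10:79874476-79883174, plus strand) is followed after 3073 bases by Elane (ENSMUSG00000020125, chr10:79886247-79888215, plus strand). The sequences are from RefSeq on GRCm38.p6, are written 5′ to 3′ on the strand of the gene and end at the base before the start; GENCODE places the outer end of Prtn3 further upstream than RefSeq does. Capitals mark matches, on either strand, to the letters GAGGAA (a core bound by PU.1) or TTNNGCAA (a C/EBP type motif), which did not overlap.
S100a8, chr3:90668821-90668977, plus strand: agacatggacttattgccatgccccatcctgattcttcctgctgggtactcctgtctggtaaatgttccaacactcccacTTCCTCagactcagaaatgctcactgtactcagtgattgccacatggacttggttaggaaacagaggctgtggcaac
S100a9, chr3:90695722-90695971, minus strand: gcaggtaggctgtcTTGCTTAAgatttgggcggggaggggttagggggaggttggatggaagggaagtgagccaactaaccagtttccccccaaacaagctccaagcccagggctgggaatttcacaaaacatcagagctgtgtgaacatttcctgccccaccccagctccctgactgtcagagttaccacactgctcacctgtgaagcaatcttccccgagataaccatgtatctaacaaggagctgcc
Prtn3, chr10:79879417-79879613, plus strand: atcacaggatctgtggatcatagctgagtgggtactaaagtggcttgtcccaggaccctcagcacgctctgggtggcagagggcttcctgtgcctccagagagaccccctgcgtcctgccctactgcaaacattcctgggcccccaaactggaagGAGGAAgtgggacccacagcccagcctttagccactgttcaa
Elane, chr10:79886062-79886246, plus strand: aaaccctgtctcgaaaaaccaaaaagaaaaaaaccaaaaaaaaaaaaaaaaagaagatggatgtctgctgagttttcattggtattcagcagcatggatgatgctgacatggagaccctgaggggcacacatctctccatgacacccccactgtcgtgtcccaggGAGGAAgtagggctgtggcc
The PU.1 core was found once upstream of S100a8, Prtn3 and Elane and was not found in the S100a9 stretch. Such a match is present in 15.2%, 18.5% and 17.5% of 27025 mouse promoters over the same lengths (157, 197 and 185 bases). The C/EBP letters were found once upstream of S100a9, as in 9.55% of promoters over 250 bases. The letters TTCNNNGAA (a STAT type motif) matched in none of the 7 members' stretches. These matches describe letters only. Mmp8 (ENSMUSG00000005800, chr9:7558456-7568485), Cxcr2 (ENSMUSG00000026180, chr1:74153989-74161246) and Csf3r (ENSMUSG00000028859, chr4:126024550-126044440) are single loci on the plus strand.

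Values below are deposited normalized counts, that is reads of a gene divided by the size factor of the library. Recovered reads per library ranged from 19.9 M to 30.5 M, and the C26-CHO libraries were the deepest, at a median of 26.07 M against 21.98 M for CT and 22.05 M for the untreated tumour group. Libraries of CT and of the tumour groups lay apart on the first principal component of all tested genes. The library C26-CHO 1 was intermediate, with a score of -13.41, between CT (-83.15 to -75.36) and the other C26-CHO libraries (22.32 to 50.48). Differences of the tested members between the tumour groups are given with and without it, and for Elane as a range over the libraries left out. Its effect on ratios, pairs of members, likeness and marker sums was added after seeing the data. The limma p-values set a difference of group means against the spread between libraries within groups, pooled over all groups. Exact permutation p-values come from reshuffling the libraries compared.

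In C26 compared with CT, the alarmins, the proteases and the receptors were all higher. All 6 tested members were called higher by limma (Benjamini-Hochberg adjusted p under 0.05), against 33.3% of all tested genes called higher. All but Csf3r had CT means under 10 (0.567 for Mmp8 to 8.97 for S100a9) and passed the filter only through the tumour groups. The count of 6 is therefore not independent of the filter. The median log2 fold change of these 6 was 3.79, and over all tested genes it was 0.01. In all 7 members every C26 library lay above every CT library. This was so in the higher direction for 16.9% of tested genes, which do not include Elane. The exact two-sided permutation p of each member was 0.000155, the smallest that 8 libraries against 8 allow. The rise ranged from 1.84 on the log2 scale for Csf3r to 7.03 for Prtn3.

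S100a8 encodes the smaller subunit of calprotectin. Its value in CT was 2.87 at the lowest, 4.29 at the median and 10.6 at the highest. In C26 these values were 42.8, 97.6 and 239, and in C26-CHO 23.5, 48.0 and 116. Both tumour groups lay wholly above CT. The log2 fold change in C26 vs CT was 3.89 (SE 0.32, limma adjusted p = 6.96e-11). S100a9, the other subunit, had 3.53, 9.45 and 14.1 in CT, 53.8, 118 and 275 in C26, and 44.6, 78.5 and 143 in C26-CHO. Its log2 fold change in C26 vs CT was 3.68 (SE 0.30, limma adjusted p = 4.35e-11). The highest library of C26 was number 6 for both subunits and the lowest was number 4 for both. Per kb of exon, the ratio of S100a9 to S100a8 had a median of 1.616 in C26 (1.439 to 2.174) and 2.229 in C26-CHO (1.587 to 2.526). In CT, at a few reads per library, this ratio ran from 0.591 to 5.318.

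Mmp8, the neutrophil collagenase, was close to absent from control liver. Its 8 CT libraries held 5 reads in all, 4 of them had none, and the highest value was 1.72. In C26 the values were 34.3 at the lowest, 57.9 at the median and 220.5 at the highest, and in C26-CHO 10.6, 28.0 and 51.7. The log2 fold change in C26 vs CT was 5.52 (SE 0.35, limma adjusted p = 5.89e-13), a value that depends on the pseudocount of 1 because CT is near 0: it was 7.13 with DESeq2 on the recovered reads and 3.69 with a pseudocount of 5.

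Prtn3 showed the largest rise of the members. It had 33 reads over the 8 CT libraries, with values of 0.883 at the lowest, 3.68 at the median and 5.84 at the highest. In C26 the values were 499, 558 and 765, and in C26-CHO 510, 659 and 1460. The lowest tumour-bearing library thus stood far above the highest control library. The log2 fold change in C26 vs CT was 7.03 (SE 0.21, limma adjusted p = 1.25e-19). The spread within C26 was narrow (589.7 ± 98.2, SD, n = 8), whereas S100a8 there was 104 ± 60.1 (SD, n = 8). Prtn3 shares 159 of its 1732 exon bases with Plppr3 on the opposite strand. The use of strand in counting is not given in the sources used here, so reads of that stretch cannot be told apart. Plppr3, given here because of this overlap, had medians of 34.8 in CT, 64.6 in C26 and 53.4 in C26-CHO, all below the lowest Prtn3 value in a tumour-bearing liver.

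Elane, the next gene on the chromosome and the other primary granule protease of the set, stayed low. Its 8 CT libraries held 4 reads in all and 5 of them had none. The values in C26 were 2.30 at the lowest, 3.53 at the median and 10.9 at the highest (39 reads in the group), and in C26-CHO 1.16, 6.14 and 13.8 (56 reads). C26 did not overlap with CT in its values, and 7 of the 8 C26-CHO libraries lay above every CT library. In reads the groups touched: C26 5, C26 7 and CT 4 held 2 each, so their order rests on the size factors. In the fit without a filter the log2 fold change in C26 vs CT was 2.10 (SE 0.36, limma adjusted p = 1.54e-05), beside 23.4% of all 22392 genes called higher in that fit. Other genes of the primary granule were also near 0 in C26: Mpo had 35 reads over the group and Ctsg 7, while Ms4a3 had 3 and Cst7 4. These low genes were picked after their values were seen, as the rest of a fixed list of 5. The remaining gene of that list, Srgn, a granule proteoglycan that many blood cells make, rose by 0.62 on the log2 scale (SE 0.17, limma adjusted p = 0.0031).

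The receptors were of moderate level. Cxcr2 had 20 reads over the CT libraries, with values of 0 at the lowest, 1.88 at the median and 4.42 at the highest. In C26 it had 14.2, 28.4 and 69.0, and in C26-CHO 8.61, 15.1 and 27.7. The log2 fold change in C26 vs CT was 3.28 (SE 0.32, limma adjusted p = 1.19e-09). Csf3r was the member best detected in control liver, with 28.4, 38.0 and 53.7. It had 104, 126 and 239 in C26 and 75.8, 103 and 177 in C26-CHO, and its log2 fold change in C26 vs CT was 1.84 (SE 0.18, limma adjusted p = 1.03e-09). As with both alarmin subunits and Mmp8, the highest C26 library of both receptors was number 6. That same library had the lowest Prtn3 of the group, and library 4, the lowest for S100a8, S100a9 and Mmp8, had the highest Prtn3.

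**Figure D1:**
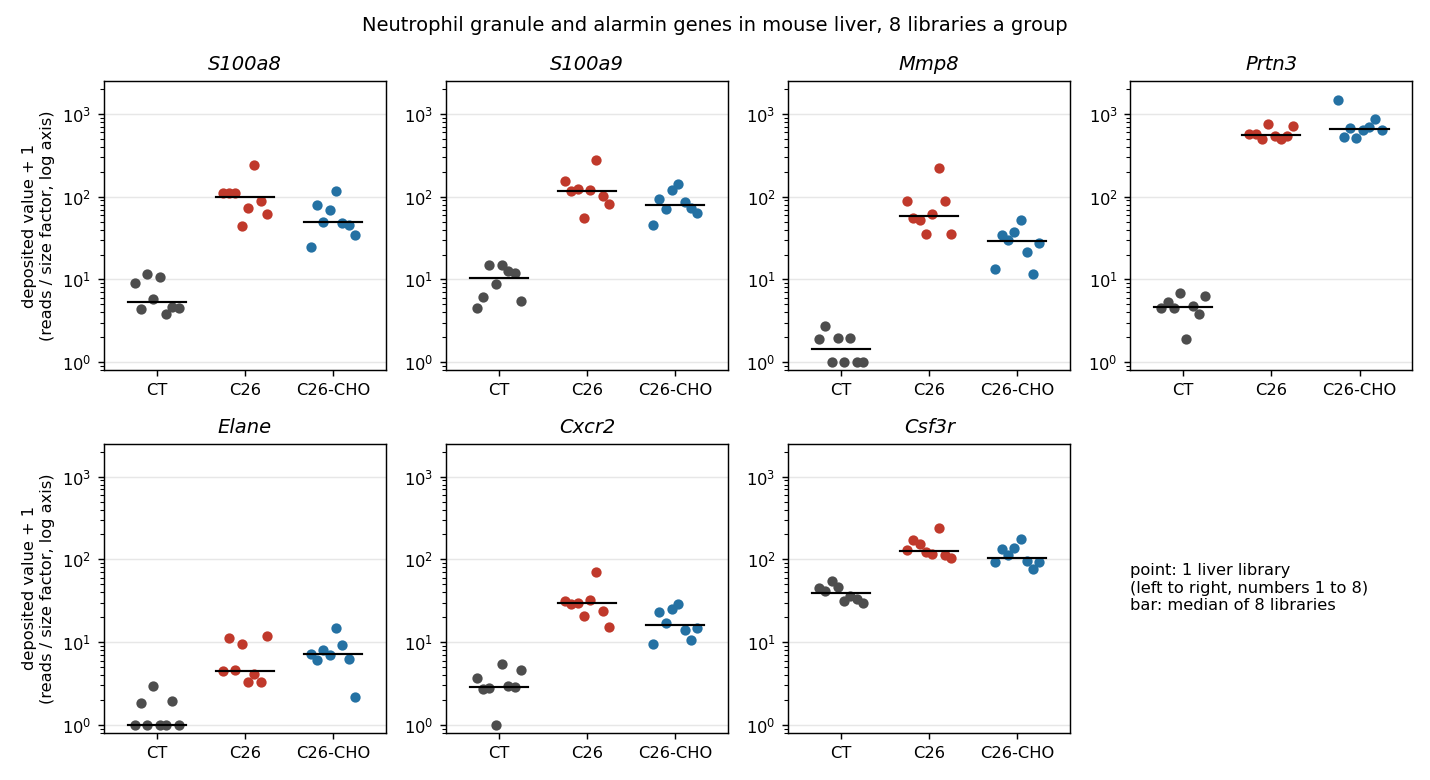
Deposited value plus 1 (log axis) of each member in each liver library, by group; points are libraries and bars are medians of 8. All C26 points lie above all CT points in each panel, Prtn3 reaches a median of 558 in C26 and 659 in C26-CHO, and Elane stays at medians of 3.53 and 6.14.

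Divided by exon length, the members took a different order in each group. In CT the order by median per kb was S100a9 (18.1), Csf3r (10.5), S100a8 (6.17), Prtn3 (2.12), Cxcr2, Mmp8 and Elane (0). Only S100a8 and Prtn3 were neighbours with no overlap of their ranges. In C26 it was Prtn3 (322), S100a9 (226), S100a8 (141), Csf3r (34.9), Mmp8 (23.9), Cxcr2 (9.31) and Elane (3.58), and every neighbouring pair overlapped. In C26-CHO the order was Prtn3 (380), S100a9 (150), S100a8 (69.2), Csf3r (28.5), Mmp8 (11.6), Elane (6.24) and Cxcr2 (4.94). There, Prtn3 (lowest 294.5 per kb) lay above all S100a9 values (highest 273.9), and the other neighbouring pairs overlapped.

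Cholestyramine was the only stated difference between C26-CHO and C26. No tested member was called in either direction by limma, where 0.705% of all tested genes were called (99 of 14040, 78 higher and 21 lower, and 23 to 273 with a library left out). At an unadjusted p under 0.05, 3 of the 6 were lower in C26-CHO (S100a8, Mmp8 and Cxcr2) and none was higher. Without C26 6 this count was 1 (Mmp8), and without C26 4, C26 8 or C26-CHO 5 it was 4. Over all 14040 tested genes, 1832 had an unadjusted p under 0.05 in either direction. At this threshold edgeR on the recovered reads had 4 members lower and 1 higher, and DESeq2 had 4 lower and none higher. With edgeR on the recovered reads 1 member was called lower, beside 0.164% of tested genes, and with DESeq2 also 1, beside 0.591%; it was Mmp8 with both tools. In the point estimates, 5 of the 6 tested members were lower in C26-CHO and Prtn3 was higher. The median log2 fold change over all tested genes was 0.001. By limma adjusted p, 0.150% of tested genes were called lower, a share that is no background for a count of signs.

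Mmp8 differed most between the tumour groups. Its median was 57.9 in C26 and 28.0 in C26-CHO, and 6 of the 8 C26-CHO libraries lay below every C26 library. The log2 difference, C26-CHO minus C26, was -1.38 (SE 0.35), with an unadjusted exact permutation p of 0.00218. The limma adjusted p was 0.0685, that of edgeR 0.0313 and that of DESeq2 0.00599. The limma value passed the threshold with a pseudocount of 5 (-1.25, adjusted p = 0.0346) and without any 1 of 3 libraries: C26 8 (0.0414), C26-CHO 3 (0.0467) or C26-CHO 5 (0.0448). Without C26-CHO 1 it was -1.25 (limma adjusted p = 0.14), and without C26 6, the highest library, -1.13 (limma adjusted p = 0.116).

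For S100a8 the difference was -0.82 (SE 0.32, limma adjusted p = 0.251, exact permutation p = 0.0379 unadjusted), and it was -0.66 without C26-CHO 1 (limma adjusted p = 0.5) and -0.62 without C26 6 (limma adjusted p = 0.432). For Cxcr2 it was -0.78 (SE 0.32, limma adjusted p = 0.271, exact permutation p = 0.0204 unadjusted), and it was -0.66 without C26-CHO 1 (limma adjusted p = 0.51) and -0.59 without C26 6 (limma adjusted p = 0.461). S100a9 differed by -0.50 (SE 0.30) and Csf3r by -0.32 (SE 0.18), and neither passed an unadjusted threshold of 0.05. Without C26 6 these differences were -0.32 and -0.20, and without C26-CHO 1 they were -0.38 and -0.28. Prtn3 differed by 0.28 (SE 0.21, limma adjusted p = 0.621) and by 0.13 without C26-CHO 1, which held its highest value, 1460. In the same library S100a8 was 23.5, S100a9 44.6 and Cxcr2 8.61, each the lowest of C26-CHO. Elane differed by 0.25 (SE 0.36, limma adjusted p = 0.887 in the fit without a filter), from 0.09 without C26-CHO 5 to 0.49 without C26-CHO 8; it was 0.14 without C26 5 or C26 7, 0.39 without C26 2 and 0.40 without C26 8. Within a library, Prtn3 plus 1 stood to S100a8 plus 1 at a median ratio of 5.682 in C26 (2.083 to 17.47) and 13.99 in C26-CHO (5.438 to 59.67), given as a description. The highest of these was C26-CHO 1, and without it the C26-CHO ratios ran from 5.438 to 18.99, with a median of 13.78.

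Compared with CT, the C26-CHO livers had all 6 tested members called higher by limma, beside 31.3% of tested genes called higher. Here too, all but Csf3r had passed the filter only through the tumour groups. In the 6 tested members, every C26-CHO library lay above every CT library, as in 12.1% of tested genes. The log2 fold changes were 3.07 (SE 0.32) for S100a8, 3.18 (SE 0.30) for S100a9 and 4.15 (SE 0.35) for Mmp8. They were 2.51 (SE 0.32) for Cxcr2, 7.31 (SE 0.21) for Prtn3 and 1.52 (SE 0.18) for Csf3r. The largest limma adjusted p of the 6 was that of Cxcr2, 1.67e-07. Elane, with 2.35 (SE 0.36), was also called in the fit without a filter (limma adjusted p = 3.52e-06), where 21.1% of genes were called higher. C26 vs CT and C26-CHO vs CT share the CT libraries and are not independent.

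**Figure D2:**
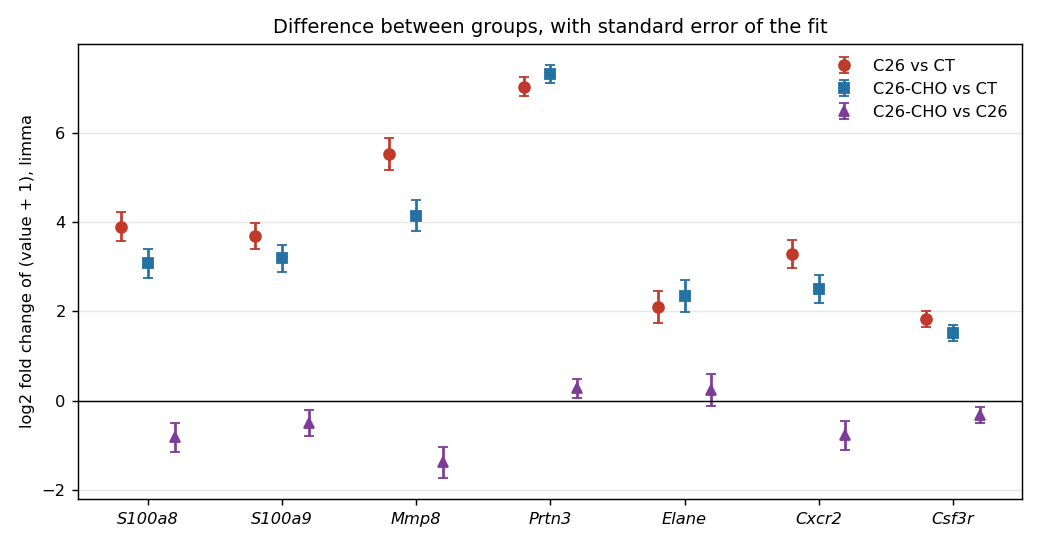
Log2 fold change of the deposited value plus 1 for each member in the 3 comparisons, with the standard error of the limma fit (Elane from the fit without a filter). Circles (C26 vs CT) and squares (C26-CHO vs CT) all lie above 0, from 1.52 to 7.31, and triangles (C26-CHO vs C26) run from -1.38 for Mmp8 to 0.28 for Prtn3.

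Among mice of one tumour group, the alarmins, Mmp8 and the receptors varied together from library to library, and Prtn3 ran the other way. Pearson's r of the log2 values was computed for 15 pairs of the 6 tested members in each group, 45 in all, with exact permutation p-values adjusted over the 45. In C26, the 10 pairs without Prtn3 had r from 0.69 to 0.96, and 8 of them had an adjusted p under 0.05. In C26-CHO the 10 pairs had r from 0.77 to 0.96, and 9 passed. With Spearman's rho, 2 of these pairs passed in C26 and 6 in C26-CHO. In CT, where most of these genes had few reads, r ran from -0.56 to 0.41 over the same pairs and none passed.

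S100a8 and S100a9 had r = 0.96 in C26 (exact permutation adjusted p = 0.01, n = 8, rho = 0.93 with adjusted p = 0.0335), and r = 0.79 without the 2 libraries farthest from the median. In C26-CHO they had r = 0.95 (exact permutation adjusted p = 0.0103, n = 8, rho = 0.91 with adjusted p = 0.0342), and r = 0.83 without 2 libraries. Mmp8 and Cxcr2 had r = 0.96 in C26-CHO (exact permutation adjusted p = 0.00558, n = 8, rho = 0.98 with adjusted p = 0.0179), and r = 0.94 without 2. The weakest of these pairs in C26, Mmp8 and Csf3r (r = 0.69), had r = 0.04 without 2 libraries, so that it rests on them.

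Prtn3 had a negative r with each of the other 5 in C26 (-0.80 to -0.56) and in C26-CHO (-0.81 to -0.55). Of these 5 pairs, 2 passed in each group by Pearson's r and none by rho. With S100a8 in C26, r was -0.80 (exact permutation adjusted p = 0.0301, n = 8, rho = -0.69 with adjusted p = 0.136), and -0.65 without 2 libraries. With Cxcr2 in C26-CHO, r was -0.81 (exact permutation adjusted p = 0.0195, n = 8, rho = -0.81 with adjusted p = 0.0891), and -0.96 without 2 libraries. On the deposited scale without a log, none of the 4 Prtn3 pairs that passed kept an adjusted p under 0.05 (0.0709 to 0.173), and the sign was the same. Without C26-CHO 1, r in C26-CHO ran from 0.67 to 0.98 over the 10 pairs without Prtn3 and from -0.80 to -0.44 over the 5 with it (n = 7, not tested). Depth and liver composition are shared by all genes of a library.

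**Figure D3:**
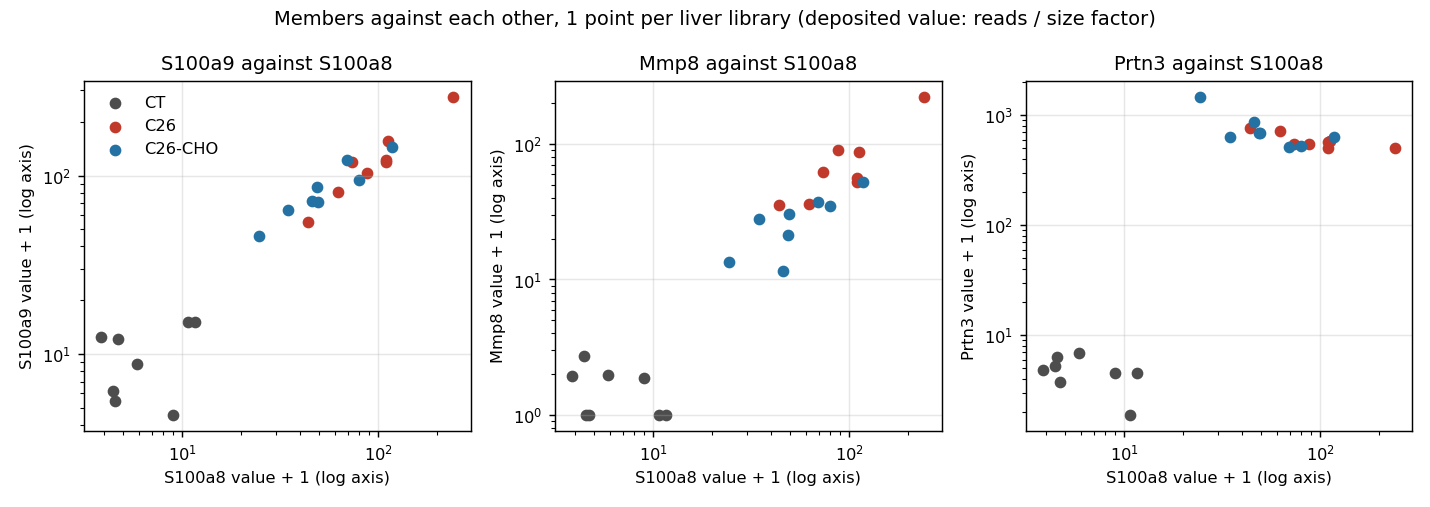
Values plus 1 (log axes) of S100a9, Mmp8 and Prtn3 against S100a8, each point a liver library coloured by group. S100a9 and Mmp8 climb with S100a8 within both tumour groups, whereas Prtn3 is highest (1460) in the C26-CHO library with the lowest S100a8 (23.5).

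The genes most like each member were taken as the 3 with the highest r of log2 values after the group means were subtracted. Over the 16 tumour-bearing libraries, S100a8 was most like S100a9 (0.95), Tlr2 (0.93) and Arf2 (0.92), and S100a9 was most like S100a8, Tlr2 (0.93) and Nfkb2 (0.90). Among the genes most like Mmp8 were F13a1 (0.94) and Cxcr2 (0.92). Cxcr2 was most like Akap12, Icam1 and Cxcl13 (0.94 to 0.93), and Csf3r was most like Cd300lf, Pfkp and Akap12 (0.92 each). For Prtn3 the closest were Bmf (0.95), Cat (0.95), which encodes catalase, and Aldh5a1 (0.95). Over all 24 libraries other genes were among the closest: Ifngr1 (0.83) and Hif1a for S100a8, Rcn2 (0.77) and Hif1a for S100a9, and Col4a2 (0.80), Itgam and Col4a1 for Mmp8. Slfn4 (0.76), Cxcl13 and Plek were closest to Cxcr2, Gas7 (0.81), Ccl2 and Ralb to Csf3r, and Rpsa-ps5 (0.75), Sult5a1 and Hdhd5 to Prtn3. Without C26-CHO 1, over 15 libraries, S100a9 and S100a8 had 0.94, Akap12 remained closest to Cxcr2 (0.95), F13a1 to Mmp8 (0.93) and Cd300lf to Csf3r (0.93). For Prtn3, Cisd1 (0.90) and Proc (0.90) then came first, Aldh5a1 (0.89) came next, and Bmf and Cat had 0.87 each. These values describe the libraries and were not tested.

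Other genes of neutrophil granules were read in C26 vs CT. In the list counts of C26 vs CT here and below, rose and fell mean called by limma. Beside them, 33.3% of all tested genes were called higher and 32.9% lower, and without a filter 23.4% of all genes were called higher. Of 11 tested genes of the secondary and tertiary granules (19 of the 23 listed were in the table), 10 rose and none fell, with a median log2 fold change of 2.03. The smallest p-values were those of Lcn2 (8.98, SE 0.20), Hp (4.46, SE 0.11), Chil1 (5.79, SE 0.38) and the integrin Itgam (3.00, SE 0.22). Lcn2 and Hp are also acute phase genes of hepatocytes, and Hp had a median of 32800 already in CT. The classical contents of secondary granules were close to 0 in all groups: over the 8 C26 libraries Ltf had 10 reads, Camp 4 and Ngp 19, and over the 8 CT libraries 7, 2 and 7. Ly6g, the surface antigen by which mouse neutrophils are usually sorted, had 3 reads in CT, 20 in C26 and 32 in C26-CHO. These 4 were picked after their values were seen.

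Of 18 tested surface receptors of neutrophils other than the members, 17 rose in C26 vs CT and none fell (median 1.33). Csf2rb2 (4.12, SE 0.20) and Csf2rb (2.09, SE 0.14), subunits of the interleukin-3 type receptors whose near-identical copies may share reads, the pattern receptor Tlr2 (3.11, SE 0.19) and the interleukin-1 receptor antagonist Il1rn (4.41, SE 0.27), also on that list, had the smallest p-values. All 6 subunits of the NADPH oxidase, which makes superoxide, rose by small amounts (median 0.66), with Ncf4 at 1.216 (SE 0.17), Rac2 at 0.66 and Cyba at 0.63. Of 7 tested transcription factors of the granulocyte line, 5 rose and 1 fell, where 32.9% of all tested genes were called lower. Without a filter 6 of 9 rose and 2 fell. Under the filter were Gfi1 (14 reads over CT, 4 over C26) and Cebpe (2 and 12), looked up after their values were seen. Stat3 (1.73, SE 0.06), Cebpd (2.39, SE 0.23) and Spi1, which encodes PU.1 (1.01, SE 0.14), rose. Cebpa, with a median of 10870 already in CT, fell by 0.56 (SE 0.09), a call that was lost after quantile normalization (-0.20, limma adjusted p = 0.0607).

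Ligands that attract neutrophils were higher too. Of 8 tested chemoattractants and growth factors 7 rose and 1 fell (median 1.67). Cxcl1, a ligand of Cxcr2, went from a median of 396.5 in CT to 6790 in C26 and 6057 in C26-CHO (C26 vs CT 4.08, SE 0.12). Cxcl2 rose by 4.46 (SE 0.52), Il1b by 2.30 (SE 0.28) and the platelet chemokine Ppbp by 2.21 (SE 0.25). Csf3, the ligand of Csf3r, was under the filter with 1 read over the CT libraries, 8 over C26 and 3 over C26-CHO, and was looked up because it is the ligand of a member. Of 8 adhesion genes of endothelium, 6 rose, with Icam1 (2.29, SE 0.11), Sele (4.57, SE 0.51), Selp (2.43, SE 0.30) and Vcam1 (1.17, SE 0.20) having the smallest p-values.

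Of 11 tested alarmin receptors and other alarmins, 8 rose and 1 fell (median 1.105). Myd88, the adaptor of the Toll-like receptors, rose by 1.88 (SE 0.09), Bsg, a reported receptor of S100a9, by 1.198 (SE 0.07), Il33 by 3.42 (SE 0.26) and Cd14 by 4.23 (SE 0.36). The list of other S100 genes, which also holds S100pbp, the gene of an S100-binding protein, did not move as a group. Of 7 tested, 2 rose (S100a11 by 2.58, SE 0.21, and S100a6 by 1.23, SE 0.34). S100a1 and S100pbp fell by 0.23 and 0.26, the first of these no longer called after quantile normalization. Among 16 inhibitors of neutrophil serine proteases and of collagenase, 5 rose and 3 fell (median 0.04), not above the 33.3% and 32.9% of all tested genes. A2m (9.66, SE 0.71), Serpina3n (4.55, SE 0.17) and Itih4 (4.24, SE 0.11) rose and Timp3 fell by 1.02 (SE 0.14). Serpina1a, from the same list and chosen after its values were seen as the main plasma inhibitor of elastase, had medians of 281600 in CT and 289700 in C26, and it too has near-identical copies that may share its reads.

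**Figure D4:**
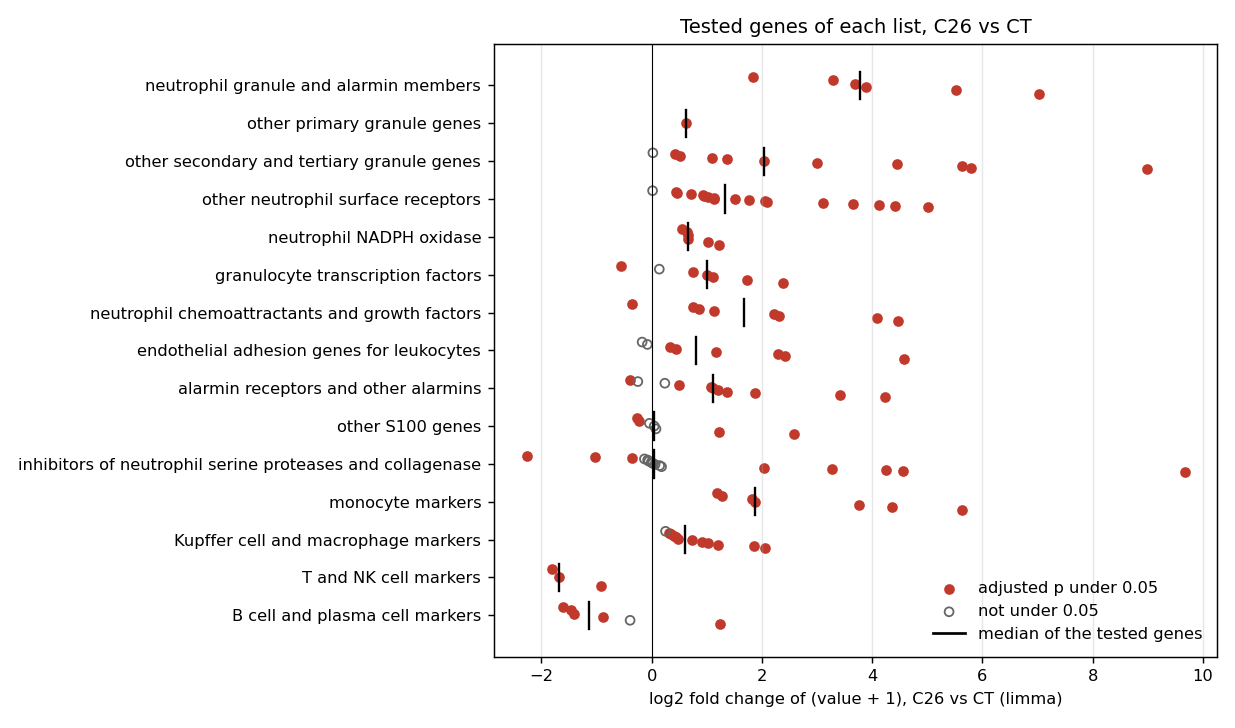
Log2 fold change in C26 vs CT of each tested gene, by gene list; filled points passed an adjusted p of 0.05 and bars are list medians. The 6 tested members run from 1.84 to 7.03 with a median of 3.79. The list of other S100 genes, S100pbp included, has a median of 0.05 (with S100a11 at 2.58 and S100a6 at 1.23). The 3 tested T and NK cell markers lie below 0.

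Most monocyte and macrophage markers were higher in C26 as well, whereas T and NK cell markers were lower. All 7 tested monocyte markers rose in C26 vs CT, among them F13a1 (4.37), Chil3 (5.62), Fn1 (1.88) and Vcan (3.76). Without a filter 7 of the 8 listed rose. Ly6c2, the listed marker under the filter, picked after its values were seen, had medians of 9.16 in CT and 9.48 in C26. The summed value of the 8 listed markers ran from 17030 to 28910 in CT, from 65950 to 111100 in C26 and from 40060 to 106100 in C26-CHO. Nearly all of this sum is Fn1, which is also a plasma protein gene of hepatocytes. Fn1 had medians of 24390 in CT and 87270 in C26, where the sums had medians of 24550 and 88140. The sum is thus mainly a reading of Fn1. The lowest of the C26-CHO sums was that of C26-CHO 1, where Fn1 alone was 39520, and the other 7 ran from 70250 to 106100. Of 12 Kupffer cell and macrophage markers 11 rose, with the smallest p-values at Cd163 (1.85), Vsig4 (1.02), Cd5l (1.21) and C1qb (0.92), with sums from 5810 to 8201 in CT, 11130 to 14360 in C26 and 10570 to 18040 in C26-CHO. All 3 tested T and NK cell markers fell, with sums of the 12 listed from 76.6 to 205.7 in CT, 34.4 to 77.5 in C26 and 38.4 to 126.8 in C26-CHO (to 121.8 without C26-CHO 1, the highest). In C26 every listed monocyte, macrophage and T and NK cell marker had at least 1 read. Their part in the values of the members was not tested.

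In C26-CHO vs C26, 1 gene of the neutrophil and monocyte lists was called. Chil3, held by both the granule and the monocyte list, encodes a chitinase-like protein of myeloid cells and was lower by 2.02 on the log2 scale (SE 0.46, limma adjusted p = 0.0363). Its values were 35.5 at the lowest, 57.8 at the median and 224.6 at the highest in C26, and 1.56, 21.9 and 48.0 in C26-CHO. The call was lost without C26 1, 2, 3, 6 or 7 and without C26-CHO 6, 7 or 8 (limma adjusted p from 0.0518 to 0.1), and was kept without C26-CHO 1 (-1.64, limma adjusted p = 0.0464). It was also lost with a pseudocount of 0.5 (limma adjusted p = 0.0596), without a mean-variance trend (0.0508) and with only both tumour groups in the fit (0.107), and was kept with edgeR (0.0267) and DESeq2 (0.022). The receptors of the neutrophil list had 0 of 18 called, with a median of -0.21, and the NADPH oxidase subunits 0 of 6, with a median of 0.01. F13a1 differed by -1.003 (SE 0.34, limma adjusted p = 0.162) and Cxcl2 by -1.55 (SE 0.52, limma adjusted p = 0.164). Sums of the T and NK cell and macrophage markers overlapped between the tumour groups, as the ranges above show.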

How the data were processed

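Liver RNA-seq of 24 mice was analysed from the gene table that the authors deposited. Its values are a normalized signal, counts divided by a size factor of each library, per the submitters' processing notes with DESeq2 1.22.2. Those notes also name bcl2fastq 2.17, FastQC, Trimmomatic 0.38, STAR 2.6.1d and GRCm38; no counting tool, annotation or strand setting is named, that is, these are not given in the sources used. All values (100%) were whole reads times a factor within 0.001 of a read, so the reads were recovered; 22009 of 22392 identifiers had a GENCODE M21 symbol.

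The 14040 genes whose mean value reached 10 entered 1 limma 3.58.1 fit (R 4.3.3, eBayes with a trend) on log2(value + 1) over the 24 libraries, with 3 contrasts and Benjamini-Hochberg adjustment over all genes tested; genes under an adjusted p of 0.05 were called. Fold changes are on the log2(value + 1) scale, which understates changes of low genes. Elane was read from the same fit without a filter. Single members were also tested by exact two-sided permutation (scipy 1.17.1), unadjusted. Alternatives were other filters, pseudocounts of 0.5 and 5, quantile normalization, eBayes without a trend, only the compared groups, a replicate block, each library left out, and edgeR 4.0.16 and DESeq2 1.42.0 on the recovered reads. The fits were tested on simulated data. The text names all 7 members, up to 4 genes of a described list with the smallest p, and the 3 genes most like each member; a few of these are not reported here, and genes outside the rule are marked as chosen after their values were seen or as overlapping a member. The members, lists and tests were chosen with earlier results of these data known.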

Additional observations from a re-analysis of the deposited data

Results flagged for a closer look

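In 21 groups of 8 libraries (7 members in 3 groups), 3 had a library far from the others, where chance flags about 1 in 20 groups. Each is the lowest library of its group, and the distance was taken on the log2(value + 1) scale, which spreads low values. Flags on the deposited scale can differ and are not given here. The values that follow are deposited values. Cxcr2 was at 0 in CT 4, where the other CT libraries had at least 1.72. Prtn3 was at 0.883 in CT 5, a single read, where the other CT libraries had at least 2.77. Elane was at 1.16 in C26-CHO 8, where the other C26-CHO libraries had at least 5.08. All 3 rest on a few reads per library.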

How the results depend on the processing

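Over the alternatives run, all 6 tested members stayed called higher in C26 vs CT and in C26-CHO vs CT, except that a filter at a mean of 50 left only 4 of them to test, all called. In C26-CHO vs C26 the count of members called lower went from 0 to 1, always Mmp8, with a pseudocount of 5, with edgeR, with DESeq2 and in 3 of the fits that left out a library (range 0 to 1). No named value changed its sign among the results recomputed. The number of all genes called in C26-CHO vs C26 moved most: 99 as reported, 65 without a trend, 10 with only the compared groups, 326 with DESeq2 and 23 to 273 with a library left out. It fell without C26 1 (25), C26 2 (53), C26 7 (51), C26-CHO 6 (55), C26-CHO 7 (23) or C26-CHO 8 (56) and grew without C26-CHO 3 (273) or C26-CHO 4 (160). The cause was not tested. Filters decided how many genes of the lists with few reads were tested: without a filter 14 of 19 secondary and tertiary granule genes, 24 of 26 surface receptors and 12 of 15 chemoattractants rose in C26 vs CT, and 11 of 12 T and NK cell markers fell.

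The replicate numbers are not stated to pair mice, and same-numbered libraries had correlations of their deviations from -0.204 to 0.255, so they were not used as pairs. With a replicate block 9643 genes were called in C26 vs CT, 9079 in C26-CHO vs CT and 97 between the tumour groups. Of 121 results refitted with this block 1 changed its call, Chil3 in C26-CHO vs C26 (limma adjusted p = 0.0557). CT values of Mmp8 and Elane rest on 5 and 4 reads, so their fold changes against CT have no fixed size.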

Other observations

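Genes beside the members were read as values, with no test of position. Mmp27, another metalloproteinase gene 2911 bases beyond Mmp8, had medians of 6.98 in CT, 25.3 in C26 and 24.99 in C26-CHO. Cxcr1, the second interleukin-8 type receptor, lies 30539 bases from Cxcr2 and had medians of 0 in CT, 2.88 in C26 and 5.31 in C26-CHO, so that its median was higher in C26-CHO than in C26 while that of Cxcr2 was lower. Ptbp1, 9705 bases before Prtn3, had medians of 1276, 1447 and 1503. Cfd, 2638 bases beyond Elane, had medians of 0.89, 1.81 and 2.27. It was uneven between libraries, with highest values of 161.9 in CT, 173.6 in C26 and 59.4 in C26-CHO.

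The library C26-CHO 1 combined the highest Prtn3 value (1460) with a value of A2m of 966.5, where the median of C26-CHO was 180000 and that of CT 357.6. A2m encodes an acute phase inhibitor of proteases. These values were chosen after they were seen.

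Among the other lists in C26 vs CT, all 4 tested megakaryocyte and platelet markers rose (median log2 fold change 1.296). Without a filter 6 of the 8 listed rose and 1 fell. Gp1ba, under the filter and picked after its values were seen, had medians of 14.4 in CT and 7.42 in C26. Of 6 tested B cell and plasma cell markers 4 fell and 1 rose. Of 11 hepatocyte markers 4 rose and 6 fell, and of 8 tested proliferation genes none rose and 3 fell, beside 33.3% of all tested genes called higher and 32.9% called lower.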
